A study of Mus musculus with 18 samples.

Results

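The unfolded protein and amino acid response genes are 35 mouse genes for the folding machinery of the endoplasmic reticulum (ER), the sensors that watch it and the genes those sensors switch on. They were chosen by gene symbol, and each was read from its brightest probe set among those paired with exactly 1 symbol. All 35 were measured, among 18193 genes in all. The set was compared between 3 diets, and between the mice whose sample titles are numbered 1 to 3 and those numbered 4 to 6, across the diets.

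Liver RNA had been hybridised to Affymetrix arrays, 1 mouse per array. The mice were male C57BL/6J, 5 weeks old on arrival and fed their diets for 20 weeks. The first group, of 6 mice, had a Western-style diet with 0.05% quercetin, a plant flavonol, and is also called the quercetin group. The second, of 6, had the Western-style diet alone, in which fat supplied 39.9% and sucrose 34.0% of the energy, made with 20% butter, 1% soy oil and 0.15% cholesterol. The control group had AIN93G, a purified rodent diet. It had 6 arrays and counted as 5 samples, because arrays 4 and 5 differed by an SD of only 0.0469 on the log2 scale over 2645 bright probe sets, against 0.155 for the next closest pair. They were averaged and are given as control mouse 4-5. Mice given quercetin in the control diet were not analysed here. Mice were housed 3 per cage, but the labels do not say which mice shared a cage, nor what the title numbers stand for. The p-values therefore measure the spread between these mice, whatever they shared.

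In the unfolded protein response, misfolded protein in the ER activates the sensors IRE1, PERK and ATF6. IRE1 splices the mRNA of the transcription factor XBP1, ATF6 is cut to release a transcription factor, and PERK phosphorylates eIF2α, which slows translation while favouring that of ATF4. XBP1 and ATF6 switch on chaperones and ER-associated degradation (ERAD), and ATF4 switches on genes of amino acid supply, also when amino acids are short. Hepatocytes secrete large amounts of plasma protein and carry an extensive ER. Arrays read mRNA only, so the splicing of Xbp1 and the phosphorylation of eIF2α were not measured. In whole liver, fewer cells of a type and less RNA per cell cannot be told apart.

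The ER stress element (ERSE) is the promoter sequence through which ATF6 and XBP1 are known to act on chaperone genes. It is shown here because it stands in the promoters of 5 genes that were higher in the mice numbered 1 to 3 than in those numbered 4 to 6. The promoters of the 4 with the smallest p follow, from RefSeq on GRCm38.p6, as the 250 bases before the start site. Each exact match to the ERSE letters given below is in capitals, and near matches were not searched for. The promoters are Hspa5 at chr2:34771840-34772089 on the plus strand, Creld2 at chr15:88819396-88819645 on the plus strand, Hsp90b1 at chr10:86705445-86705694 on the minus strand and Pdia6 at chr12:17266339-17266588 on the plus strand.
Hspa5: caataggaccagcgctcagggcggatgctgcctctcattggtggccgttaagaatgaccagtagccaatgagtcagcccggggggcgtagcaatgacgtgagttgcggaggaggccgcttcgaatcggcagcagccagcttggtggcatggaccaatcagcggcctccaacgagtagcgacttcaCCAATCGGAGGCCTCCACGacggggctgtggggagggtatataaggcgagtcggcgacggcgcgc
Creld2: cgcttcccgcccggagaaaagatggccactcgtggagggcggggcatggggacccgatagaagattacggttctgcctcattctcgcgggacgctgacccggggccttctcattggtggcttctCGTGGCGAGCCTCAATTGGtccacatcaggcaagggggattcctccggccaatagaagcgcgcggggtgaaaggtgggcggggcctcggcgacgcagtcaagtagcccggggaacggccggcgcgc
Hsp90b1: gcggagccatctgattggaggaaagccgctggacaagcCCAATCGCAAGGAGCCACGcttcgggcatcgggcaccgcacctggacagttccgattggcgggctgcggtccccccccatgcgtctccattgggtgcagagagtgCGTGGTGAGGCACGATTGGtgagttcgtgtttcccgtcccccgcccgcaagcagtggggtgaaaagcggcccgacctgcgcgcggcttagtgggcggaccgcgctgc
Pdia6: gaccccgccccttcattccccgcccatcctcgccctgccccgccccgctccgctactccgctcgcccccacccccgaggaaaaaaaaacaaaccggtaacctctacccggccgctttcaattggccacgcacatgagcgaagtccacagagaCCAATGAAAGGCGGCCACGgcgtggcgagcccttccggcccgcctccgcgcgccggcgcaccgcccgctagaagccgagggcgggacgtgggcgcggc

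Counted from the start site, the element began at base -65 in Hspa5, -126 in Creld2 and -98 in Pdia6. Hsp90b1 held it at -212 and again at -107. In Creld2, and at the second place in Hsp90b1, it was read on the opposite strand. The search covered both strands of 250 bases before to 50 after each start site. The letters of the ERSE were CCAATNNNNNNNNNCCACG. Of 35 members, 32 were in the promoter table, with 33 promoters. Manf, Hyou1 and Atf6 had no entry there and were not searched. The ERSE stood in 7 of those 33 (21.2%) and in 39 of all 32851 promoters (0.119%). Canx, Dnajc3 and Calr were the other members with it, at -145, -105 and -162.

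A related element, ERSE-II, with the letters ATTGG and CCACG parted by 1 base, stood in the promoters of Dnajb11 and Herpud1 (6.06% of the members' promoters, against 0.0365% of all). It shares the letters CCACG with the ERSE. The core of a further element bound by ATF6 and XBP1, TGACGTGG, whose opposite strand also holds CCACG, was in 0 of the 33 promoters and in 222 of all (0.676%). The element through which ATF4 acts, TGATGNAAN, was in 6 of the 33 (18.2%), against 3.95% of all promoters. Its 6 genes were Atf3, Chac1, Trib3, Asns, Herpud1 and Slc7a11. These matches describe the letters of the window and do not show that a factor is bound there. The members were chosen as genes of these responses, so their shares are no independent test against all promoters.

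Levels below are log2 of the array value plus 16 after quantile normalization, and differences are log2 differences of those levels, tested with limma over 13645 genes. Genes below the 25th percentile of mean level (log2 4.564) were left out as dim. Of the 35 members 34 passed. The exception was Slc7a11, the cystine importer, whose levels ran from 4.18 to 4.75 in mice on the Western-style diet with quercetin, from 4.44 to 4.94 in Western-diet mice and from 4.20 to 4.57 in control mice. A gene was called higher or lower at an adjusted p under 0.05.

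Several ER chaperones and part of the stress-sensing machinery were higher in the mice numbered 1 to 3 than in the mice numbered 4 to 6. With diet in the model, 13 of 34 members were higher and 0 lower (38.2%), where 6.52% of all genes were called, 2.95% higher and 3.57% lower. On the values as deposited 7 members were called, and 7 with only the array medians centred. Manf, Creld2, Hspa5, Dnajb9, Eif2ak3 and Sel1l were called under both. The shares of all genes in this paragraph belong to the main fit, on quantile-normalized values, and those under the other settings are not given. In the main fit 17 members had an unadjusted p under 0.05, against 21.8% of all genes. The difference was positive for 31 of the 34. Its median was 0.25, against 0.004 for all genes. All 13 called members had the higher mean in the mice numbered 1 to 3 within each of the 3 diets. They had been called by the difference between the same mice, so this was largely fixed by the choice. Of all 34 members 19 did so, against 20.6% of all genes. The leading genes were Manf, Creld2, Hspa5, Dnajb9 and Sel1l, with folds of 1.42 to 2.09.

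**Figure D1:**
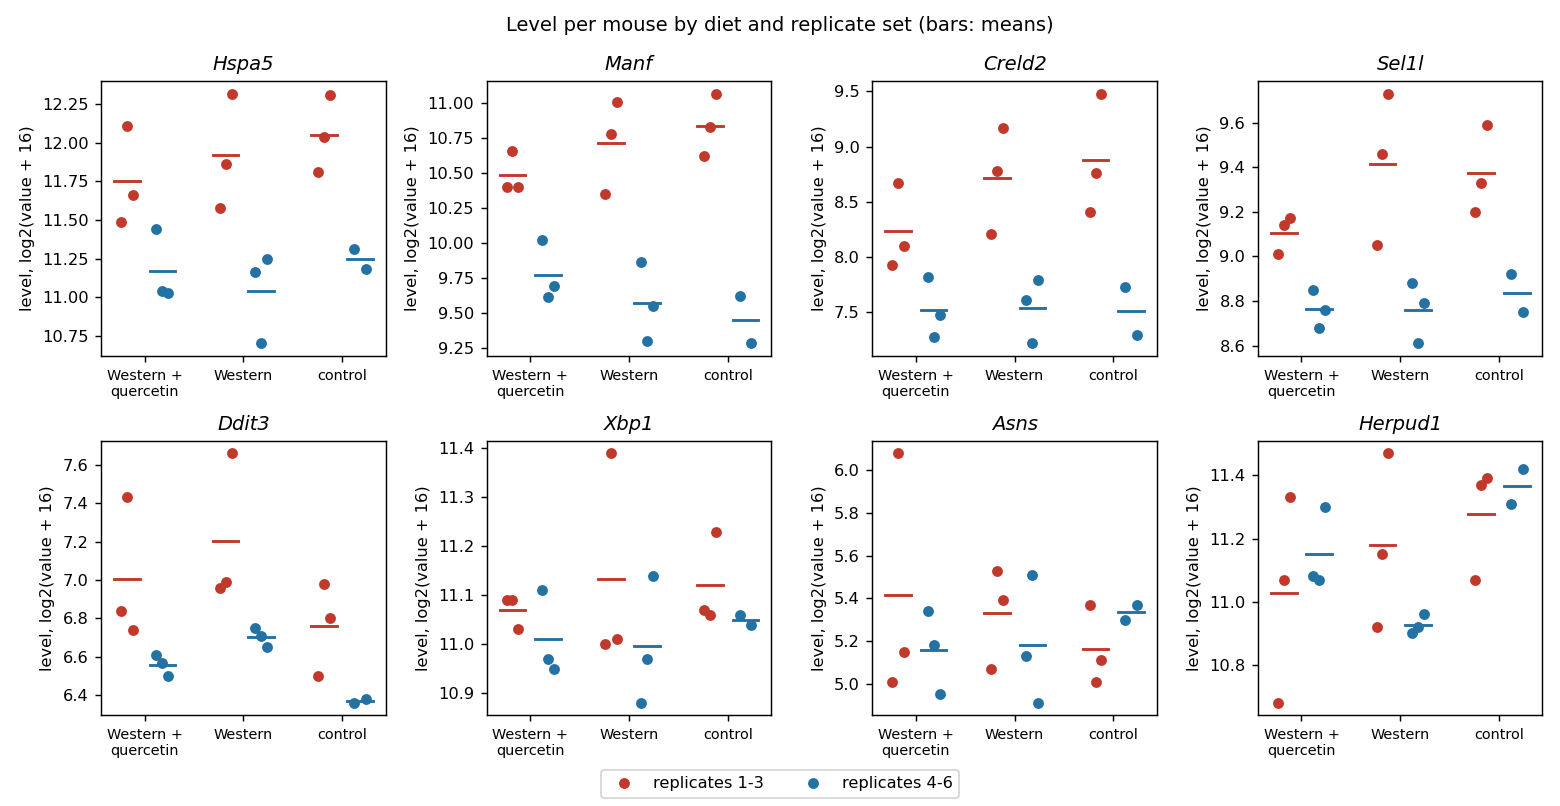
Level of 8 genes in each mouse, as log2(value + 16) after quantile normalization, by diet (Western-style diet with quercetin, Western-style diet, control diet), with mice numbered 1 to 3 in red left of those numbered 4 to 6 in blue. Bars are means. For Hspa5, Manf, Creld2 and Sel1l every red point lies above every blue point, whereas for the probe sets of Xbp1, Asns and Herpud1 shown the colours overlap.

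The chaperones and folding enzymes were the role group with most calls: 8 of 14 were higher (57.1%), all 14 differences were positive, and their median was 0.32. Of these 8 chaperones 4 were still called on the values as deposited. Hspa5 encodes BiP, the main Hsp70 chaperone of the ER and the protein that holds the sensors inactive. On the Western-style diet with quercetin its level was 11.49, 12.11 and 11.66 in mice 1, 2 and 3, and 11.44, 11.04 and 11.03 in mice 4, 5 and 6. On the Western-style diet alone it was 11.58, 11.86 and 12.32 in mice 1 to 3, and 11.16, 10.70 and 11.25 in mice 4 to 6. Control mice 1 to 3 had 11.81, 12.04 and 12.31, and control mice 4-5 and 6 had 11.31 and 11.18. Every mouse numbered 1 to 3 was thus above every mouse numbered 4 to 6. The difference was 0.76 ± 0.12 (SE, n = 9 and 8), a fold of 1.69, with limma's adjusted p = 0.00161. In the deposited intensity units Hspa5 had a lowest, median and highest value of 2962, 3426 and 5025 in the mice numbered 1 to 3, against 1786, 2325 and 3113 in those numbered 4 to 6.

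Manf encodes a small secreted protein of the ER that binds BiP and is induced by ER stress. Mice 1, 2 and 3 on the Western-style diet with quercetin had levels of 10.40, 10.66 and 10.40, against 10.02, 9.61 and 9.69 in mice 4, 5 and 6. Western-diet mice had 10.35, 10.78 and 11.01 against 9.86, 9.30 and 9.55, in the same order of numbers. Control mice had 10.62, 10.83 and 11.07 against 9.62 and 9.28. The mice numbered 1 to 3 were again all above the others. Manf differed by 1.06 ± 0.12, a fold of 2.08 (adjusted p = 0.000162), the smallest p of any member. The deposited intensities had a median of 1607 in the mice numbered 1 to 3 and 772.1 in those numbered 4 to 6.

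Creld2 encodes an ER-resident protein with disulfide isomerase activity that is induced by ER stress. Its levels were 7.93, 8.67 and 8.10 in mice 1 to 3 on the Western-style diet with quercetin, against 7.82, 7.28 and 7.48 in mice 4 to 6. Western-diet mice had 8.21, 8.78 and 9.17 against 7.61, 7.22 and 7.79. Control mice had 8.41, 8.76 and 9.48 against 7.73 and 7.30. The groups of numbers did not overlap, though mouse 1 of the quercetin group lay close to mouse 4 of that group. The difference was 1.06 ± 0.18, a fold of 2.09 (adjusted p = 0.00179).

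Dnajb9, a J-domain partner of BiP, had a lowest, median and highest level of 10.11, 10.34 and 10.77 in mice numbered 1 to 3, against 9.55, 9.88 and 10.17 in those numbered 4 to 6. Hsp90b1, which encodes the ER's Hsp90 chaperone GRP94, had 11.31, 11.49 and 11.77 against 10.86, 11.04 and 11.41. Both overlapped slightly between the groups of numbers, with differences of 0.52 ± 0.11 for Dnajb9 (adjusted p = 0.00825) and 0.43 ± 0.09 for Hsp90b1 (adjusted p = 0.00782). Dnajb11, another J-domain partner of BiP, had 8.13, 8.30 and 8.86 against 7.75, 7.93 and 8.30. Pdia6, a protein disulfide isomerase, had 9.83, 10.00 and 10.37 against 9.45, 9.62 and 10.20. The ranges of these genes overlapped too, and their differences were smaller, at 0.39 ± 0.10 for Dnajb11 (adjusted p = 0.0288) and 0.36 ± 0.10 for Pdia6 (adjusted p = 0.0401). Calr, a lectin chaperone for glycoproteins, was the eighth, at 0.27 ± 0.08 (adjusted p = 0.0473). Most alternative settings ended the calls of Calr and Pdia6, which held in 7 and 6 of 28.

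Among the 6 chaperone genes that missed the threshold, Hyou1, the nucleotide exchange factor of BiP, was nearest, with a difference of 0.28 (adjusted p = 0.152). The disulfide isomerases Pdia4 and Pdia3 had 0.21 and 0.13. Sdf2l1, a partner of Dnajb11, had 0.28, with a 95% interval of -0.09 to 0.65. Dnajc3, a further J-domain protein, had 0.13. Canx, the membrane-bound counterpart of calreticulin, had 0.04.

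**Figure D2:**
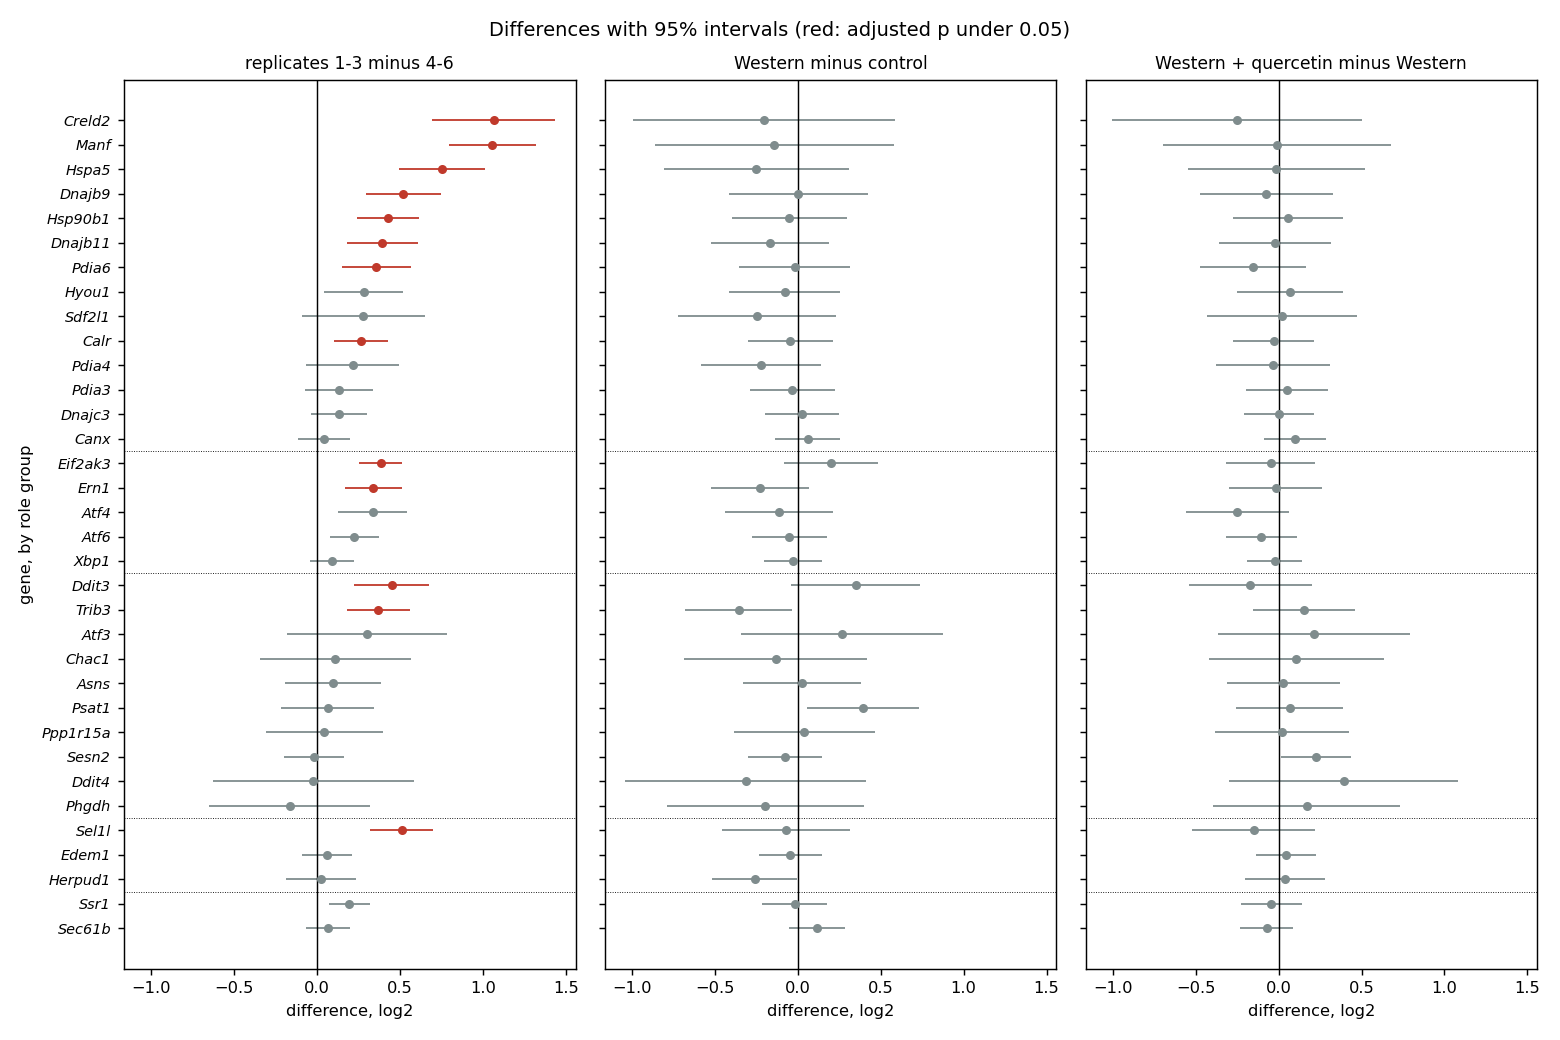
Log2 difference of each of the 34 compared members with its 95% interval, for mice numbered 1 to 3 minus those numbered 4 to 6 (left), the Western-style diet minus the control diet (middle) and the quercetin group minus the Western-style diet (right), by role group, with called genes in red. The 13 red points are all in the left panel, led by Creld2 and Manf, and most intervals in the other panels cross 0.

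Of the sensors and transcription factors, 2 of 5 were higher, all 5 differences were positive, and the median was 0.33. Eif2ak3 encodes PERK. On the Western-style diet with quercetin it had 7.16, 7.50 and 7.34 in mice 1 to 3 and 7.14, 6.91 and 6.86 in mice 4 to 6. Western-diet mice had 7.47, 7.32 and 7.39 against 7.06, 6.93 and 7.04, and control mice 7.29, 7.07 and 7.13 against 6.79 and 6.73. Within each diet the numbers did not overlap, and the difference was 0.38 ± 0.06 (adjusted p = 0.00140). Ern1, which encodes IRE1, had 8.36, 8.52 and 8.95 as lowest, median and highest in mice numbered 1 to 3, against 7.89, 8.24 and 8.38. Its difference was 0.34 ± 0.08 (adjusted p = 0.0211), with a small overlap.

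Atf4, the transcription factor downstream of PERK, narrowly missed the threshold at 0.33 (adjusted p = 0.0518). Its levels were 8.67, 9.29 and 9.10 against 8.94, 8.71 and 8.77 on the Western-style diet with quercetin, 9.11, 9.40 and 9.62 against 8.80, 8.95 and 9.10 on the Western-style diet, and 9.53, 9.29 and 9.46 against 8.82 and 9.29 on the control diet, each with mice 1 to 3 first. The sensor Atf6 had a difference of 0.23 at its brightest probe set (adjusted p = 0.0602). Its next brightest probe set differed by -0.009 and the dimmest by 0.37. Xbp1 differed by 0.09 at its brightest probe set (adjusted p = 0.447). Its levels there were 11.09, 11.09 and 11.03 against 11.11, 10.97 and 10.95 with quercetin, 11.00, 11.39 and 11.01 against 10.88, 10.97 and 11.14 on the Western-style diet, and 11.07, 11.06 and 11.23 against 11.06 and 11.04 on the control diet. At this probe set the numbers overlapped on all 3 diets. The next brightest probe set of Xbp1 differed by 0.28. With probe sets whose names end in _x_at or _s_at left out, this probe set stood for the gene and was called higher (limma's adjusted p = 0.0285).

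The ATF4 and amino acid response targets held fewer calls: 2 of 10 were higher, 7 differences were positive, and the median was 0.08. Ddit3 encodes CHOP, a transcription factor tied to cell death under lasting ER stress. Its levels were 6.84, 7.43 and 6.74 in mice 1 to 3 against 6.61, 6.57 and 6.50 in mice 4 to 6 on the Western-style diet with quercetin. On the Western-style diet they were 6.96, 6.99 and 7.66 against 6.75, 6.71 and 6.65, and on the control diet 6.50, 6.98 and 6.80 against 6.36 and 6.38. The numbers did not overlap within any diet, and the difference was 0.45 ± 0.11 (adjusted p = 0.0210). Trib3, a pseudokinase induced by ATF4 and CHOP, had a lowest, median and highest level of 6.08, 6.44 and 6.87 against 5.85, 6.08 and 6.53, and a difference of 0.37 ± 0.09 (adjusted p = 0.0231).

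The amino acid synthesis genes among these targets did not pass the test. Asns, which makes asparagine, had a difference of 0.10. It had 5.01, 6.08 and 5.15 against 5.34, 5.18 and 4.95 in the quercetin group, 5.07, 5.53 and 5.39 against 5.13, 5.51 and 4.91 in the Western-diet group, and 5.37, 5.01 and 5.11 against 5.30 and 5.37 in the control group, so that the numbers overlapped in each. Psat1 and Phgdh, enzymes of serine synthesis, had differences of 0.06 and -0.16. Chac1, which degrades glutathione, had 0.11, and Atf3, a stress-induced transcription factor, 0.30. Ddit4 and Sesn2, which restrain mTORC1, had -0.02 and -0.02, and Ppp1r15a, the phosphatase subunit that reverses eIF2α phosphorylation, had 0.04.

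In ERAD, 1 of 3 members was higher. Sel1l, the adaptor of the HRD1 ubiquitin ligase, had 9.01, 9.14 and 9.17 against 8.85, 8.68 and 8.76 on the Western-style diet with quercetin. It had 9.05, 9.46 and 9.73 against 8.88, 8.61 and 8.79 on the Western-style diet, and 9.20, 9.33 and 9.59 against 8.92 and 8.75 on the control diet. All mice numbered 1 to 3 were above all others, and the difference was 0.51 ± 0.09, a fold of 1.42 (adjusted p = 0.00302). Herpud1, an ER membrane protein that organises the same ligase, differed by 0.02 (adjusted p = 0.919), and by -0.03 at its next brightest probe set. Edem1, a lectin that picks glycoproteins for degradation, differed by 0.06 at its brightest probe set but by 0.30 at the next brightest. At the translocon, where new proteins enter the ER, Ssr1 differed by 0.19 (adjusted p = 0.0573) and Sec61b by 0.06.

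Overlap between the groups of numbers was also counted mouse by mouse. Every mouse numbered 1 to 3 lay above every mouse numbered 4 to 6 for 4 of 34 members (Hspa5, Manf, Creld2 and Sel1l), against 0.374% of all genes. Within each of the 3 diets separately the numbers did not overlap for 6 members, the 4 above with Eif2ak3 and Ddit3, against 0.887% of all genes. The mean was higher in mice numbered 1 to 3 on all 3 diets for 19 members, against 20.6% of all genes. Of the spread of each gene within the diets, the title numbers accounted for a median of 23.4% over the members and 8.70% over all genes. The share was 82.5% for Manf, 79.8% for Eif2ak3 and 71.1% for Hspa5, but 0.406% for Herpud1 and 0.0378% for Ddit4.

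**Figure D3:**
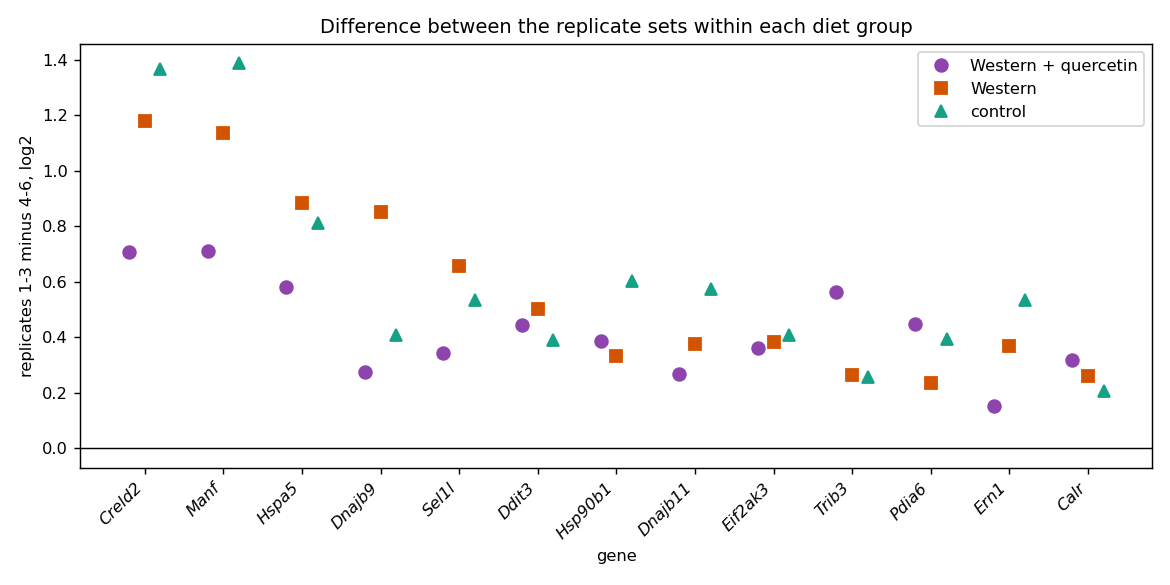
Log2 difference of mice numbered 1 to 3 minus those numbered 4 to 6 within each diet, for the 13 called members. All 39 points lie above 0, for genes called by the difference between the same mice. The quercetin group has the smallest difference for Manf, Creld2, Hspa5 and Sel1l, among others, and the largest for Trib3, Pdia6 and Calr.

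The size of the difference varied between diets without passing a test. For Manf it was 0.71 on the Western-style diet with quercetin, 1.14 on the Western-style diet and 1.39 on the control diet. For Creld2 it was 0.71, 1.18 and 1.37 in the same order, and for Hspa5 0.58, 0.88 and 0.81. Other called members had their largest difference with quercetin: Trib3 had 0.56, 0.26 and 0.26, Pdia6 0.45, 0.24 and 0.40, and Calr 0.32, 0.26 and 0.21. Whether the difference itself differed between diets was tested as an interaction. Between the Western-style diet with quercetin and the Western-style diet, 0 of 34 members passed, with a smallest adjusted p of 0.895, and 0% of all genes. An unadjusted p under 0.05 was reached by 3 members, Dnajb9 (-0.57), Ddit4 (-1.37) and Psat1 (0.65), against 5.36% of all genes. Between the Western-style and control diets 0 of 34 passed, with a smallest adjusted p of 0.931, where 0.00733% of all genes were called. At an unadjusted p under 0.05 there were 0 members, against 5.4% of all genes.

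**Figure D4:**
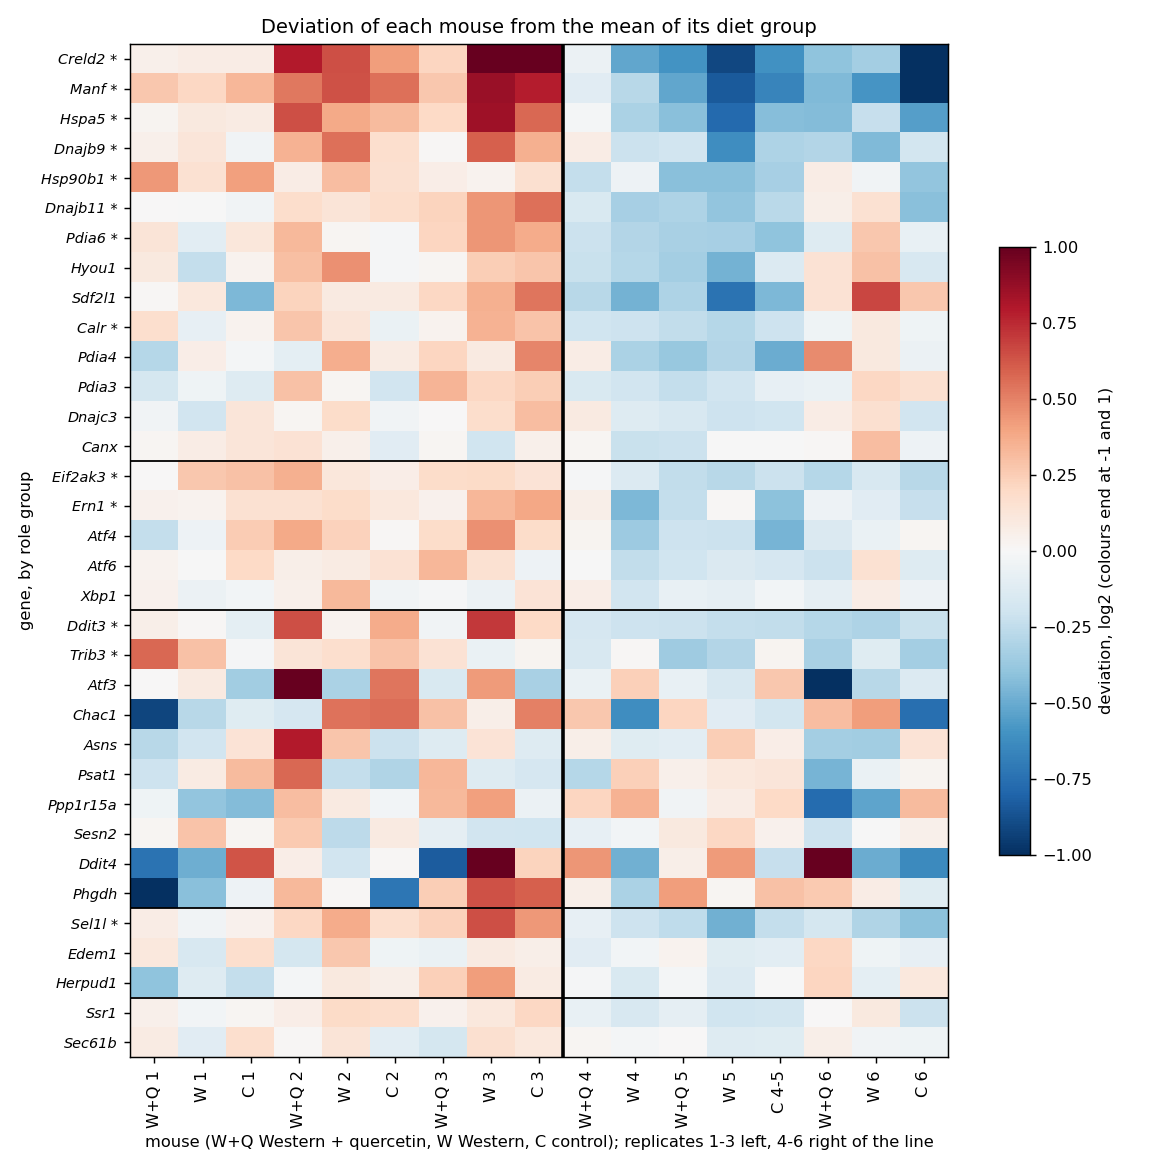
Deviation of each member in each mouse from the mean of its diet group, on the log2 scale, with mice numbered 1 to 3 left of those numbered 4 to 6 and genes grouped by role. Chaperone rows are mostly above the diet mean on the left and below it on the right. Among the mice on the right, Western-diet mouse 6 has 9 of 14 chaperone genes above the diet mean. Its Hspa5, Manf, Creld2 and Dnajb9 are below it.

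Chaperone levels tended to lie on the same side of the diet mean within single mice. These deviations still hold the difference between numbers 1 to 3 and 4 to 6, by which 8 of the 14 genes were called. Other sets of 14 genes were not compared. Averaged over the 14 chaperone genes, the deviation from the diet mean was 0.44 in control mouse 3, 0.39 in Western-diet mouse 3, 0.29 in quercetin mouse 2 and 0.28 in Western-diet mouse 2. All 14 genes lay above the diet mean in control mouse 3, Western-diet mouse 2 and quercetin mouse 3. At the other end, none of the 14 did so in quercetin mouse 5 (-0.33), Western-diet mice 4 (-0.27) and 5 (-0.46), or control mouse 4-5 (-0.33). Among the mice numbered 4 to 6, Western-diet mouse 6 had 9 of 14 genes above the diet mean and an average of 0.04, and quercetin mouse 6 had 7 of 14 and -0.06. The ATF4 targets followed another order: quercetin mouse 2 had the highest average, 0.43, with 9 of 10 genes above the diet mean, and quercetin mouse 1 had -0.28.

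Other probe sets of the same genes gave mostly the same direction. Of the 13 called members 8 had another probe set above the dim limit, 15 in all, and 12 of these 15 were higher in mice numbered 1 to 3 (median 0.34, range -0.08 to 0.90). Those below 0 were 2 of Ern1 (-0.04 and -0.02) and 1 of Pdia6 (-0.08). When all probe sets of a gene were averaged instead of taking the brightest, 9 members were called, and the share of all genes is not given. Pdia6, Eif2ak3, Ern1 and Ddit3 then missed the threshold, with differences of 0.14, 0.12, 0.11 and 0.42 (adjusted p = 0.0688 for Ddit3). Within a single diet, where 3 mice stood against 3 or 2, limma called Manf among Western-diet mice, Manf and Creld2 among control mice, and 0 members among mice with quercetin.

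The ERSE shown above stood in 5 of the 12 promoters of called members in the table (41.7%), those of Hspa5, Creld2, Hsp90b1, Pdia6 and Calr, and in 2 of the 21 promoters of the rest (9.52%), those of Canx and Dnajc3. The ATF4 element stood in 1 of 12 (8.33%), that of Trib3, and in 5 of 21 (23.8%). The called member without an entry was Manf, and the rest include Slc7a11, which was not compared. Pdia6 and Calr kept their call in only 6 and 7 of 28 alternative settings. These shares are a description of few promoters.

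A list of 101 other genes of the same pathways, chosen like the members with earlier results of these data known, had 96 genes compared. Of these, 19 were higher and 4 lower (24.0%), where 2.95% of all genes were higher and 3.57% lower. Their median difference was 0.10, against 0.004 for all genes. Positive differences numbered 71 of the 96, against 51.2% of all genes. The higher ones with the smallest p came from several steps. Spcs2, a subunit of the signal peptidase, had 0.61 (adjusted p = 0.000306), and Hspa13, an Hsp70 relative of the ER, 0.57 (0.000586). Tars and Cars, the cytosolic threonyl- and cysteinyl-tRNA synthetases, had 0.78 (0.000354) and 0.56 (0.00133). Creb3l2, an ER-anchored transcription factor, had 0.50 (0.00105), and Selenos, a selenoprotein of ERAD, 0.45 (0.00133). The 4 lower genes were Cebpb, a liver transcription factor (-0.62, adjusted p = 0.000787), Eif4ebp1, a repressor of cap-dependent translation (-0.31, 0.00752), Slc6a9, a glycine transporter (-0.32, 0.0395), and Creb3l3, an ER-anchored transcription factor of liver (-0.23, 0.0429). By sublist, 3 of 19 folding and redox genes were higher, 3 of 16 ERAD genes, 4 of 13 translocation genes, 4 of 20 signalling genes with 2 lower, and 5 of 28 further ATF4 targets with 2 lower.

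Markers of cell types were compared between the same mice, and their part in the differences above was not tested. Of hepatocyte markers 0 of 10 were called, and the sum of their values was 64780 to 70790 in mice numbered 1 to 3 against 65750 to 69590 in those numbered 4 to 6. Of macrophage markers 0 of 12 were called, 10 of 12 differences were positive with a median of 0.20, and sums were 4090 to 13040 against 3792 to 8180, and of B cell and plasma cell markers 0 of 6, with 978.9 to 1203 against 796.5 to 1282. Of stellate cell markers 1 of 10 was higher, Acta2 by 0.38 (adjusted p = 0.0134), and 8 of 10 differences were positive with a median of 0.16, with sums of 2125 to 4952 against 2116 to 4215. Of neutrophil markers 0 of 3 were called, and all 3 differences were positive with a median of 0.34. Among endothelial markers 0 of 10 were called and 7 differences were positive, with a median of 0.07. Pecam1 was nearest at 0.24 (limma's adjusted p = 0.0518). The exocrine pancreas, a tissue rich in chaperones that borders the liver, had 0 of 2 called, Prss2 being nearest at 0.53 (adjusted p = 0.105), with Cela2a, Cpa1 and Ctrb1 below the dim limit and sums of 47.9 to 81.3 against 35.2 to 91.0. The ratio of 3′ to 5′ actin control probe sets, a measure of RNA integrity, was 0.57 ± 0.12 against 0.62 ± 0.08 on the log2 scale (SD, n = 9 and 8; two-sided exact permutation test within diets, p = 0.159). With that ratio in the model 9 members were called, and the share of all genes is not given.

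Feeding the Western-style diet instead of the control diet changed no member past the threshold: limma called 0 of 34, against 8.65% of all genes. At an unadjusted p under 0.05 there were 3 of 34 members, against 23.3% of all genes. Differences ran from -0.36 to 0.39 with a median of -0.05 (10 positive, 24 negative), where all genes had a median of -0.015. Of the 34 intervals 33 lay within 1 log2 unit of 0 and 19 within 0.5. Hspa5 had a lowest, median and highest level of 10.70, 11.41 and 12.32 in Western-diet mice, against 11.18, 11.31, 11.81, 12.04 and 12.31 in control mice. Its difference was -0.25, with a 95% interval of -0.81 to 0.31, so that neither a fall nor a small rise can be told from 0 here.

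Psat1, Trib3 and Herpud1 had the smallest p-values in this comparison. Psat1 had 4.84, 5.08 and 5.31 as lowest, median and highest in Western-diet mice, against 4.38, 4.51, 4.71, 4.80 and 5.00 in control mice, a difference of 0.39 (interval 0.05 to 0.73, adjusted p = 0.149). Trib3 had 5.85, 6.12 and 6.44 against 6.17, 6.50, 6.53, 6.53 and 6.79, a difference of -0.36 (adjusted p = 0.168). Herpud1 had 10.90, 10.94 and 11.47 against 11.07, 11.31, 11.37, 11.39 and 11.42, a difference of -0.26 (adjusted p = 0.203). Each of the 3 overlapped between the diets. Ddit3 had 6.65, 6.86 and 7.66 against 6.36, 6.38, 6.50, 6.80 and 6.98, a difference of 0.35 (adjusted p = 0.276). Xbp1, Atf4 and Asns had differences of -0.03, -0.11 and 0.03.

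Adding quercetin to the Western-style diet likewise changed no member past the threshold: 0 of 34 were called, and 0% of all genes. An unadjusted p under 0.05 was reached by 1 of 34 members, against 2.87% of all genes. Differences ran from -0.25 to 0.39 with a median of -0.01 (17 positive, 17 negative), and the median over all genes was -0.005. Of the 34 intervals 32 lay within 1 log2 unit of 0 and 24 within 0.5. That member was Sesn2, with 6.04, 6.21 and 6.50 in mice with quercetin against 5.76, 6.01 and 6.30 in Western-diet mice, a difference of 0.22 (interval 0.01 to 0.44, adjusted p = 1.00). Next came Atf4, with 8.67, 8.86 and 9.29 against 8.80, 9.11 and 9.62, a difference of -0.25 (interval -0.56 to 0.06). Ddit4 had the largest difference, 0.39, with 6.79, 7.69 and 8.64 against 6.74, 6.90 and 8.46 and an interval of -0.30 to 1.08. The groups overlapped for all 3 genes. For Hspa5, Xbp1, Ddit3 and Asns the differences were -0.01, -0.02, -0.17 and 0.03.

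The Western-style diet with quercetin was also compared with the control diet, which shares its control mice with the comparison above. Here 0 of 34 members were called, against 5.41% of all genes, and 2 had an unadjusted p under 0.05, against 19.9% of all genes. On the values as deposited 4 members were called higher: Canx by 0.36, Eif2ak3 by 0.43, Psat1 by 0.59 and Sesn2 by 0.42. Those values keep the higher trimmed mean signal of the quercetin group's arrays (by 0.28 on the log2 scale). The share of all genes called on them is not given here. Differences on the quantile-normalized values ran from -0.46 to 0.48, with a median of -0.04 (13 positive, 21 negative). Of the 34 intervals 32 lay within 1 log2 unit of 0 and 17 within 0.5. Psat1 had 4.67, 5.06 and 5.71 in mice with quercetin against 4.38, 4.51, 4.71, 4.80 and 5.00 in control mice, a difference of 0.46 (adjusted p = 0.112), with overlap. Without quercetin mouse 6 its difference was 0.55 (adjusted p = 0.0400), the only leave-one-out fit of any diet comparison that called a member. Atf4 had 8.67, 8.86 and 9.29 against 8.82, 9.29, 9.29, 9.46 and 9.53, a difference of -0.36 (adjusted p = 0.194). Herpud1 had 10.68, 11.08 and 11.33 against 11.07, 11.31, 11.37, 11.39 and 11.42, a difference of -0.22 (adjusted p = 0.323).

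With the title numbers 1 to 3 and 4 to 6 as a term, the diet intervals narrowed and 0 members were called in each of the 3 comparisons. The smallest adjusted p was then 0.0528, for Eif2ak3 between the Western-style and control diets. For the other comparisons it was 1.00 with quercetin against the Western-style diet and 0.10 for Psat1 with quercetin against the control diet.

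The other pathway genes held a few diet calls. Between the Western-style and control diets, 3 of 96 were higher and 4 lower (7.29%, near the 8.65% of all genes, of which 5.49% were higher and 3.16% lower). Aldh18a1, which starts proline synthesis, was higher by 0.70 (adjusted p = 0.0118), Nfe2l2, the oxidative stress factor NRF2, by 0.46 (0.0245), and Derl1, an ERAD channel protein, by 0.24 (0.0293). Cth and Cbs, the enzymes that make cysteine from homocysteine, had -0.63 (0.00546) and -0.51 (0.0440), the amino acid transporter Slc38a2 -0.58 (0.00634) and the ER peroxiredoxin Prdx4 -0.30 (0.0236). With quercetin against the Western-style diet 0 of 96 were called and 1 had an unadjusted p under 0.05. The smallest p belonged to Sel1l3 (-0.36) and Srp72 (-0.18), a subunit of the signal recognition particle. With quercetin against the control diet 1 was higher and 5 lower (6.25%, against 3.43% higher and 1.98% lower of all genes): Aldh18a1 0.74 (0.0116), and Slc38a2 -0.47 (0.0290), Prdx4 -0.29 (0.0359), Dnajc1 -0.31 (0.0387), Ppib -0.32 (0.0436) and Erp44 -0.26 (0.0466). The last 3 encode a J-domain protein, a prolyl isomerase and a thiol-binding retention factor of the ER. On the values as deposited Erp44 had 0.01 and was not called.

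Other measures moved with the diets. In the quercetin group 6 of 12 macrophage markers and 5 of 10 stellate cell markers were higher than in control mice, with macrophage sums of 4540 to 13040 against 3792 to 4613 and stellate sums of 2576 to 4952 against 2116 to 2270. Of endothelial markers 1 of 10 was higher there, Lyve1 by 0.55 (adjusted p = 0.0152). Of B cell and plasma cell markers 1 of 6 was lower, Jchain at -0.42 (adjusted p = 0.0254). Of all genes 3.43% were higher and 1.98% lower in that comparison. The actin ratio was 0.55 ± 0.08 in the quercetin group (SD, n = 6) against 0.69 ± 0.06 in control mice (SD, n = 5; two-sided exact permutation test, p = 0.0195), and the trimmed mean signal was higher by 0.28 on the log2 scale (exact permutation test, p = 0.00433). In Western-diet mice 6 of 12 macrophage markers and 5 of 10 stellate cell markers were higher than in control mice, with macrophage sums of 5715 to 10060 against 3792 to 4613 and stellate sums of 2927 to 4368 against 2116 to 2270, and 1 of 10 hepatocyte markers was lower, with sums of 64780 to 68090 against 67060 to 70790. Of endothelial markers 2 of 10 were higher, Lyve1 by 0.46 (adjusted p = 0.0293) and Vwf by 0.50 (adjusted p = 0.0441). Of B cell and plasma cell markers 1 of 6 was lower, Jchain at -0.38 (adjusted p = 0.0322). Of all genes 5.49% were higher and 3.16% lower between the Western-style and control diets. The actin ratio was 0.54 ± 0.11 in Western-diet mice (SD, n = 6) against 0.69 ± 0.06 in control mice (SD, n = 5; two-sided exact permutation test, p = 0.0325). The trimmed mean signal of the arrays was higher by 0.28 on the log2 scale (exact permutation test, p = 0.00649). The part of the cell type markers and of the array signal in the diet values above was not tested. With the actin ratio in the model 0 members were called in any diet comparison, and their median difference between Western-diet and control mice was -0.17. On the values as deposited, where the median of all genes was shifted by 0.22, 4 members were called higher in Western-diet mice than in control mice: Ddit3, Eif2ak3, Psat1 and Sec61b. The share of all genes called on those values is not given here. The median of the members on them was 0.17, and with only the array medians centred it was 0.03, where all genes had 0.07.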

How the data were processed

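The deposited table gives 1 intensity per probe set and array on a linear scale, from 18 arrays and 45101 probe sets. The array medians ran from 12.7 to 23.2. Biotin-labelled cRNA was made from each mouse's total RNA, per the labels' protocols. How the authors derived the intensities from the scans, and any normalization, is not given in the sources used here. No genome build was used for the array values.

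Values were converted to log2(value + 16), so that folds of dim genes are understated, and quantile normalized. The 64 control probe sets were left out. Of the rest, 34945 were paired with 1 gene symbol, 932 with several and 9160 with none, by the annotation of the array's platform. The brightest of a gene's probe sets stood for the gene, which gave 18193 genes. Genes below the 25th percentile were left out, leaving 13645. Linear models were fitted over all 17 samples with limma 3.58.1 in R 4.3.3, and p-values adjusted over all 13645 genes by Benjamini-Hochberg. All tests were two-sided. The fit was tested on simulated data. Promoters were searched in Python 3.11.15, and figures drawn with matplotlib 3.10.9. The number of mice limits the precision: the median 95% interval of a member had a half-width of 0.338 against the control diet, 0.322 between both Western-style diets and 0.209 for mice numbered 1 to 3 against 4 to 6.

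The members, the lists and the tests were chosen with earlier results of these data known. Values over the mice (each mouse, or the lowest, median and highest of a group of more than 5) are given for the 12 members with the smallest p among those called, the 3 with the smallest p in each diet comparison, and Hspa5, Xbp1, Atf4, Ddit3 and Asns. Of the other pathway genes up to 6 called per direction are named, or the 2 with the smallest p where none was called. Alternatives changed the scaling, the pseudocount, the dim limit, the choice of probe sets, the averaging of the 2 control arrays, a covariate or block, and the mice included.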

Additional observations from a re-analysis of the deposited data

Results flagged for a closer look

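Within a diet group, 1 mouse stood far from the rest for 8 of 105 gene and group pairs (Dixon's test at 95%), where chance would give about 5.25. Quercetin mouse 2 had high levels of Asns (6.08, the others 4.95 to 5.34) and Ddit3 (7.43, the others 6.50 to 6.84). Ddit3 was also high in Western-diet mouse 3, at 7.66 against 6.65 to 6.99 in the others. Quercetin mouse 1 had a low level of Phgdh, 4.87 against 6.25 to 6.61. Quercetin mouse 6 had a low level of Ppp1r15a, 6.11 against 6.83 to 7.20, and quercetin mouse 3 of Sec61b, 10.20 against 10.38 to 10.46. Control mouse 3 had the highest Xbp1 of its group, 11.23 against 11.04 to 11.07, and the lowest Sesn2, 5.90 against 6.12 to 6.19.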

How the results depend on the processing

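For mice numbered 1 to 3 against 4 to 6, 13 members were called. The count was 7 without quantile normalization (values as deposited) and 7 with only the array medians centred, and between 9 (without control mouse 4-5) and 15 (without Western-diet mouse 1) with 1 sample left out. Within single diets, alternatives chosen after seeing the data, it was 0 with quercetin, 1 on the Western-style diet and 2 on the control diet, where the number of mice was smaller by construction. None of the 13 genes changed sign in any of the 28 alternatives, which all drew on the same mice. Manf kept its call in 27 of them, Creld2 in 26, Hspa5, Dnajb9 and Sel1l in 25, Calr in 7 and Pdia6 in 6. Both diet comparisons with the control group called 4 members on the values as deposited, on which the array signal was lower in control mice. With 1 sample left out the counts were 0 to 0 for the Western-style diet against control, 0 to 0 for quercetin against the Western-style diet and 0 to 1 for quercetin against control, and 0 to 0 for both interactions. Reversals were limited to Erp44 with quercetin against control, at 0.00604 on the values as deposited, and Ddit4 with quercetin against the Western-style diet, at -0.29 with only mice 1 to 3. The cause was not tested. With the title number as a replicate block, 0 members were called in each diet comparison. Deviations of same-numbered mice correlated from -0.26 to 0.32, over 0.1 in 15 of 18 pairs, among them all 3 pairs of each of numbers 1, 4, 5 and 6. These deviations still hold the difference between numbers 1 to 3 and 4 to 6, and mice of different numbers were not compared. The check therefore cannot decide whether the numbers pair the mice, and they were not taken to do so.

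Several pathway calls rest on the settings: of 29 alternatives, Erp44 in the quercetin group against control mice kept its call in 8, Ppib in 12, Dnajc1 in 14 and Prdx4 in 15, and Cbs in Western-diet against control mice in 10. Of 28, Creb3l3 kept its call between the title numbers in 9 and Slc6a9 in 11. Genome-wide counts varied with single mice, from 748 (without Western-diet mouse 4) to 1394 for the Western-style diet against control and from 536 (without control mouse 4-5) to 951 for the title numbers. Array signal near background limits Slc7a11, Asns and Psat1.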
